A study of Homo sapiens with 16 samples.

Results

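Wild-type human embryonic stem cells driven toward neural crest were compared at day 5 against day 3. The genes described are the 13855 of 23284 genes in the authors' deposited table whose test did not fail and whose level reached at least 1 FPKM at day 5 or at day 3. FPKM scales the sequenced fragments of a gene by the length of its transcript and by all mapped fragments of the library. Of these genes, 12569 reached 1 FPKM on both days, 529 at day 5 alone and 757 at day 3 alone. Genes that entered through a single day differ between the days by construction. The gene nearest the limit on the inside had 1.00018 FPKM in its higher group, and the nearest outside had 0.999891 FPKM.

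The study followed 16 samples of WA01 cells, an established human embryonic stem cell line, to learn how loss of the forkhead transcription factor FOXB1 alters transcription on the way to neural crest. Wild-type cells at day 5, which the labels call neural crest, and at day 3, called pre-neural crest, came from 2 isogenic lines, isoWT1 and isoWT2, with 2 replicates per line and day. A Het line and a KO line, each cut with Cas9 and 1 guide RNA at the translational start of FOXB1, were collected at both days, also with 2 replicates a day. All groups received 3 µM CHIR99021, a GSK3 inhibitor that activates WNT signalling, and were plated at 20000 cells per cm2 on Matrigel with 2% B27 and 0.5% bovine serum albumin, with 10 µM of the ROCK inhibitor Y-27632 for the first 2 days. In the authors' deposited table each day's wild-type cells form 1 group, with a single level per gene. Which of the 4 wild-type libraries per day entered it is not stated, the spread between libraries is known only through its test scores, and the depth is unknown. Nothing says whether the replicates were separate cultures, so the p-values may measure technical spread. The table's group named HOMO was read as the KO line.

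Neural crest cells arise at the border of the neural plate, where WNT, BMP and FGF signals switch on border genes such as PAX3, PAX7, MSX1 and the ZIC family. Crest specifiers such as FOXD3, SOX10, SNAI2 and TFAP2A follow, and the cells then lose epithelial junctions and migrate to form peripheral neurons, glia, melanocytes and much of the face. Cells that stay in the neural plate keep SOX1, SOX2 and SOX3 and become central neural progenitors.

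In the wild-type cells, the authors' deposited table called 17 of 24 immediate early genes and 23 of 35 mitotic genes higher at day 5, and 12 of 17 pluripotency genes and 20 of 40 DNA replication genes lower. Some border, crest, BMP, p53 target and hypoxia genes rose too, and central neural genes moved both ways. Relative to genes of like GC content, as explained below, 20 of the immediate early genes but only 10 of the mitotic genes rose. On that scale 11 of the pluripotency genes and 16 of the DNA replication genes fell. The authors' deposited table tests 13705 of the genes, and 3056 had a q-value below 0.05 and were called, which is 22.3%. Higher at day 5 were 1595 genes (11.6%), and lower were 1461 (10.7%). A change of at least 2-fold was reached by 927 of the rises and 944 of the falls called in the authors' deposited table, at least 4-fold by 164 and 170, and at least 8-fold by 31 and 47. The median log2 change of the risers was 1.08 and that of the fallers -1.13, and the smallest called changes were 0.60 and -0.61. Among genes at 1 FPKM or more on both days, the authors' deposited table called 1370 up and 1218 down. In bulk RNA, fewer cells of a type and less RNA per cell cannot be told apart.

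A gene's change also went with the GC content of its transcript, as detailed further on. Changes were therefore also taken relative to the median of genes of like GC content, in 20 bins of equal size, and calls were remade on these differences. Of 13020 genes so tested, 2407 were called (18.5%), 1331 of them as rises (10.2%) and 1076 as falls (8.26%). The remade calls rest on another test than the deposited ones: a normal p from scaled standard errors, adjusted over these genes alone. Without GC bins, that test called 2006 rises and 1894 falls. Counts given both ways thus differ by the test as well as by GC content. Each gene list below is given both ways. Its tested genes are those that had a test and reached 1 FPKM on either day. Its counts are to be read beside the shares over all tested genes, 11.6% rises and 10.7% falls in the deposited calls. Relative to the GC bin those shares were 10.2% and 8.26%, and some lists lie near them. List medians are of log2(FPKM + 0.1) over all listed genes above 0 on either day, and the same median over all 20265 such genes of the table was -0.03, or -0.02 relative to the GC bin.

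The label neural crest fitted the wild-type cells in part. Of 10 crest markers, 7 reached 1 FPKM at day 5 and 5 at day 3, and 6 rose in the authors' deposited table. The zinc finger factor SNAI2 stood at 23.2 FPKM at day 5, against 6.35 FPKM at day 3, and the neurotrophin receptor NGFR at 17.5 FPKM, against 4.96 FPKM. The paired-box factor PAX3 had 9.35 FPKM at day 5 and 1.79 FPKM at day 3. ETS1, a factor of cranial crest, rose to 6.45 FPKM at day 5, against 1.12 FPKM at day 3.

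The defining crest factors SOX10, FOXD3 and PAX7 stayed below 1 FPKM in wild type on both days. SOX10 was at 0.388 FPKM at day 5 and 0.455 FPKM at day 3, FOXD3 at 0.198 and 0.0313 FPKM, and PAX7 at 0.206 and 0.494 FPKM. In the KO line at day 5 the same 3 genes stood at 34.6, 18.6 and 4.45 FPKM, and in the Het line at day 5 at 7.07, 4.49 and 2.37 FPKM. The summed level of the 10 crest markers was 64.2 FPKM in wild type at day 5, against 18.4 FPKM at day 3. The same sum at day 5 was 113 FPKM in Het and 265 FPKM in KO. The wild-type cells are therefore called here by their day and not as neural crest.

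Markers of central neural and pluripotent cells were present in wild type on both days, and those of mesoderm, endoderm and epidermis stayed below 1 FPKM. Of 6 central neural progenitor markers, all reached 1 FPKM at day 5 and 5 at day 3, with summed levels of 209 and 246 FPKM. SOX2 stood at 140 FPKM at day 5, against 155 FPKM at day 3, and SOX1 at 24.2 FPKM, against 25.9 FPKM, and neither was called. The 6 pluripotency markers summed to 311 FPKM at day 5 and 567 FPKM at day 3, of which LIN28A made up 291 and 465 FPKM. The 6 neuron markers summed to 13.8 FPKM at day 5 and 11.8 FPKM at day 3. All 8 mesoderm and endoderm markers were below 1 FPKM on both days (sums of 0.615 and 0.924 FPKM), with SOX17, FOXA2 and GATA4 listed at 0. All 4 epidermal markers were below 1 FPKM too (sums of 0.0634 and 0.257 FPKM). Of 6 endothelial and blood markers, the receptor TEK alone passed 1 FPKM, at 17.9 FPKM at day 5 and 23.8 FPKM at day 3.

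**Figure D1:**
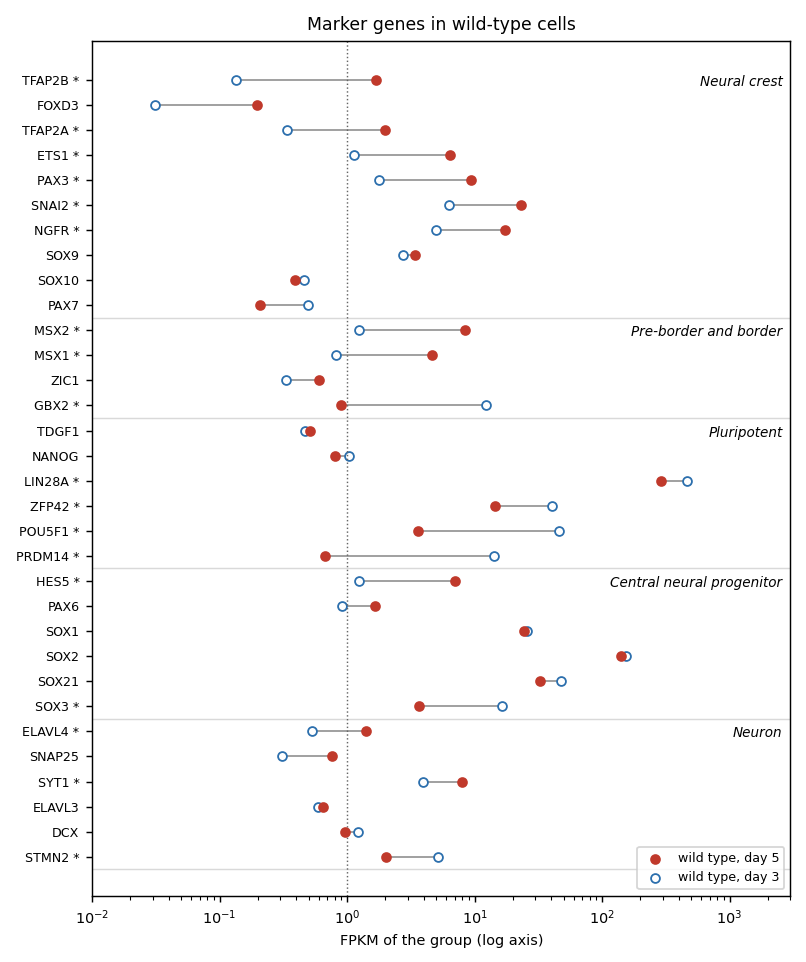
FPKM of selected marker genes in the wild-type groups at day 5 (filled) and day 3 (open) on a log axis, 1 row per gene, with genes called in the authors' deposited table marked by an asterisk and 1 FPKM by the dotted line. GBX2, POU5F1 and PRDM14 sit far to the left at day 5 of their day 3 level, while SOX10, FOXD3 and PAX7 lie left of 1 FPKM on both days.

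FOXB1 (chromosome 15, 60296421 to 60298142 in hg19), the gene edited in the other lines, stood at 5.51 FPKM in wild type at day 5, against 18.3 FPKM at day 3. It fell, with a log2 change of -1.74 (SE 0.59), and by -1.39 relative to its GC bin. Over the same days its log2 change was -0.79 (SE 0.53) in Het and -3.06 (SE 0.66) in KO. Since the guide cuts at the start codon and the transcript may persist after such a cut, its level is no test of genotype.

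Among called genes, the largest rise was that of ANXA1, a calcium-dependent phospholipid-binding protein, with 47.9 FPKM at day 5, against 1.06 FPKM at day 3 (log2 change 5.50, SE 0.61). ANKRD1, a nuclear ankyrin protein and YAP target, followed with 11.1 FPKM at day 5, against 0.294 FPKM at day 3 (5.24, SE 0.72). ARHGAP10, a GTPase-activating protein, reached 1.29 FPKM at day 5, against 0.0538 FPKM (4.58, SE 1.07). MMRN1, a secreted multimerin, TPPP3, a tubulin-binding protein, and SLC16A14, an orphan transporter of the monocarboxylate family, rose by 4.45, 4.43 and 4.32. The neuropeptide NTS, the adhesion protein CNTN3 and the noncoding RNA LINC00052 rose by 4.27, 4.22 and 4.08. PI15, a secreted protease inhibitor, had 43.9 FPKM at day 5, against 2.69 FPKM at day 3 (4.03, SE 0.48). BMP4, a BMP ligand, and LYPD1, a membrane-anchored protein, completed the 12 largest called rises, at 3.98 and 3.95. All of these 12 genes but ANXA1 and PI15 were under 1 FPKM at day 3. Genes that were not called could show larger changes: the collagen COL3A1 was at 1.01 FPKM at day 5, against 0.013 FPKM at day 3 (6.28, SE 1.68), and was called only relative to its GC bin.

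Most of the 12 largest called falls were of genes with under 1 FPKM at day 5. DNAH9, an axonemal dynein heavy chain, was at 0.0781 FPKM at day 5, against 5.50 FPKM at day 3 (-6.14, SE 0.97). VGLL2, a TEAD cofactor, was at 0.0622 FPKM, against 4.24 FPKM (-6.09, SE 1.55). The germ-cell RNA-binding protein DAZL was at 0.122 FPKM at day 5, against 7.30 FPKM at day 3 (-5.90, SE 0.90). OLIG3, a dorsal neural progenitor factor, stood at 0.339 FPKM at day 5 and 11.958 FPKM at day 3 (-5.14, SE 0.82). LECT1, a cartilage glycoprotein also known as chondromodulin, and the secretoglobin SCGB3A2 fell by 4.73 and 4.70 on the log2 scale. The histamine receptor HRH3, the neuronal membrane protein SEZ6, the LIM homeobox gene LHX5, the protocadherin PCDH8, the serotonin receptor HTR3A and the ligand WNT8A followed, with changes between -4.63 and -4.47.

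Among the most abundant genes, all 6 rises named were of ribosomal protein genes or a copy of one. RPS25 stood at 5120 FPKM at day 5, against 3193 FPKM at day 3 (log2 change 0.68, SE 0.43), and RPL39 at 4799 FPKM, against 2576 FPKM (0.90, SE 0.42). RPS3A, RPL6, RPL9 and the pseudogene RPL21P28 rose by 0.91, 0.80, 0.88 and 0.82. Reads of ribosomal genes and their many processed copies may be split between them, so single values are uncertain. The abundant falls were those of the growth factor MDK, the cytokine MIF, the RNA-binding protein LIN28A, the Ran-binding protein RANBP1, the sialomucin PODXL and the small nucleolar RNA SNORD116-4. PODXL, abundant in pluripotent cells, had 132 FPKM at day 5, against 440 FPKM at day 3 (-1.74, SE 0.43). MIF had 288 FPKM at day 5 and 491 FPKM at day 3 (-0.77, SE 0.42), and relative to its GC bin its change was 0.083. MDK changed by -0.76 (SE 0.41), and by -0.11 relative to its GC bin. SNORD116-4 is shorter than a library fragment and belongs to a family of near-identical copies, so its value is uncertain.

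Border genes split by direction. Of 10 neural plate border genes tested, the authors' deposited table called 6 up and 2 down, and the same numbers rose and fell relative to the GC bin. The list median was 0.88 over 18 genes, or 1.03 relative to the GC bin, and it was 2.14 over the 10 genes at 1 FPKM or more, some of which reached that level on a single day. The homeobox gene MSX2 had 8.35 FPKM at day 5, against 1.24 FPKM at day 3 (log2 change 2.75, SE 0.64), and MSX1 had 4.66 FPKM, against 0.812 FPKM (2.52, SE 0.69). TFAP2A, an early ectodermal factor, had 1.98 FPKM at day 5 and 0.338 FPKM at day 3 (2.55, SE 0.76). GBX2, a posterior border and hindbrain factor, ran the other way, with 0.889 FPKM at day 5 and 12.3 FPKM at day 3 (-3.79, SE 0.81).

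In the Het and KO lines, several of these border genes were already high at day 3. PAX3 was at 24.6 FPKM at day 5 and 29.3 FPKM at day 3 in Het, and at 43.1 FPKM at day 5 and 36.5 FPKM at day 3 in KO. MSX2 was at 37.5 FPKM at day 5 and 18.2 FPKM at day 3 in Het, and at 31.2 and 18.0 FPKM in KO. The wild-type change of PAX3 exceeded that of Het by 2.64 (SE 0.81) and that of KO by 2.15 (SE 0.76), and neither difference was called.

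Of 18 crest specifiers tested, 8 rose in the authors' deposited table and the other 10 were not called. The same number rose relative to the GC bin. The list median was 0.48 over 23 genes, or 0.74 relative to the GC bin. The nuclear receptors NR2F1 and NR2F2, which mark cranial crest, had 11.3 and 49.6 FPKM at day 5, against 1.23 and 6.54 FPKM at day 3 (log2 changes 3.20, SE 0.59, and 2.92, SE 0.45). TFAP2B rose to 1.67 FPKM at day 5, against 0.135 FPKM at day 3 (3.63, SE 0.75). SOX9, an early crest factor, was at 3.39 FPKM at day 5 and 2.75 FPKM at day 3 (0.30, SE 0.60) and was not called.

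Of 26 migration and epithelial-mesenchymal transition genes, the authors' deposited table called 11 up and 3 down, and 12 rose and 3 fell relative to the GC bin. Their median was 0.41, or 0.39 relative to the GC bin. CDH6, a cadherin of early crest, had 5.49 FPKM at day 5, against 1.00 FPKM at day 3 (log2 change 2.45, SE 0.54). The semaphorin SEMA3D and the Slit receptor ROBO2 rose by 2.37 (SE 0.67) and 2.34 (SE 0.63), and the semaphorin receptor NRP1 fell (2.0956 FPKM at day 5, against 9.26 FPKM at day 3). The epithelial cadherin CDH1 was at 0.271 FPKM at day 5, against 1.01 FPKM at day 3 (-1.90, SE 0.75). Of 19 epithelial genes tested, the authors' deposited table called 1 up and 6 down, but 4 rose and 4 fell relative to the GC bin, with medians of -0.62 and -0.40. CLDN6, a claudin of pluripotent and embryonic epithelium, had 25.7 FPKM at day 5 and 109 FPKM at day 3 (-2.08, SE 0.47). The small GTPase RAB25 and the adhesion molecule EPCAM fell by 2.0970 and 1.51 on the log2 scale.

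Of 7 mesenchyme genes tested, the authors' deposited table called 4 up and 1 down, and 5 rose relative to the GC bin, with medians of 0.57 and 0.63. Fibrillar collagens led them: COL1A1 had 18.8 FPKM at day 5, against 3.26 FPKM at day 3 (log2 change 2.53, SE 0.47), and COL1A2 had 52.0 FPKM, against 9.39 FPKM (2.47, SE 0.44). COL5A2, which joins type V fibrils, had 31.9 FPKM at day 5 and 3.46 FPKM at day 3 (3.20, SE 0.46), and COL12A1 rose by 3.37 (SE 0.67). Over all 23 collagen genes tested, the authors' deposited table called 6 up and 6 down, against 9 and 5 relative to the GC bin. The collagen median was -0.36, but 0.04 relative to the GC bin. Of 20 integrin and laminin genes, the authors' deposited table called 5 up and 4 down, and 5 rose and 2 fell relative to the GC bin, with medians of -0.11 and 0.10. The basement membrane protein NID1 and the integrins ITGB8 and ITGAV rose by 1.32, 1.28 and 1.18. The proteoglycan HSPG2 fell by 1.20 on the log2 scale (SE 0.44), and by 0.35 relative to its GC bin, where it was not called.

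Cadherins and axon guidance genes moved both ways. Of 19 cadherins and protocadherins tested, the authors' deposited table called 7 up and 6 down, and 8 rose and 6 fell relative to the GC bin, with medians of 0.16 and 0.19. CDH8 and CDH13 rose by 2.77 (SE 0.55) and 2.76 (SE 0.82), while PCDH1 fell (0.558 FPKM at day 5, against 4.58 FPKM at day 3). Of 42 axon guidance genes, the authors' deposited table called 11 up and 10 down, and 10 rose and 7 fell relative to the GC bin, with medians of -0.16 and 0.13. The netrin NTN4 had 5.29 FPKM at day 5, against 0.760 FPKM at day 3 (2.80, SE 0.64), and the semaphorin SEMA3G had 0.208 FPKM, against 1.07 FPKM (-2.36, SE 0.72).

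Genes of crest derivatives and of neurons showed no common direction. Of 8 melanocyte and glia genes tested, the authors' deposited table called 0 up and 0 down, a Cuffdiff test that had 1 of them higher and 1 lower at an unadjusted p below 0.05, and 1 rose relative to the GC bin. Their medians were -0.14 and -0.24. Of 6 neurogenic and sensory genes, the authors' deposited table called 2 up and 1 down, and 3 rose and 1 fell relative to the GC bin, with medians of 0.15 and 0.19. INSM1, a factor of newborn neuroendocrine cells and neurons, had 2.95 FPKM at day 5 and 0.424 FPKM at day 3 (log2 change 2.80, SE 0.78), and the neurotrophin-3 receptor NTRK3 had 5.63 FPKM, against 1.02 FPKM (2.46, SE 0.62). POU4F1, a sensory neuron factor, fell (2.45 FPKM at day 5, against 5.16 FPKM at day 3). Of 16 neuronal genes, the authors' deposited table called 4 up and 4 down, and 3 rose and 2 fell relative to the GC bin, with medians of 0.20 and 0.37. ONECUT2 and STMN4 rose by 2.01 and 1.46. The synaptic vesicle protein SYP fell (log2 change -1.43, SE 0.74) and the RNA-binding protein ELAVL4 rose (1.42, SE 0.83), and neither was called relative to its GC bin.

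Of 18 central neural progenitor genes tested, the authors' deposited table called 2 up and 5 down, and 5 rose and 6 fell relative to the GC bin, with medians of -0.22 and 0.00. DBX1, a factor of intermediate spinal progenitors, had 1.48 FPKM at day 5, against 18.4 FPKM at day 3 (log2 change -3.63, SE 0.71), and LHX5 had 0.0797 FPKM, against 1.83 FPKM (-4.52, SE 1.20). HES5, a Notch target of progenitors, rose to 7.05 FPKM at day 5, against 1.24 FPKM at day 3 (2.51, SE 0.71). SOX3 fell to 3.69 FPKM at day 5, against 16.5 FPKM at day 3.

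Of 10 forebrain, midbrain and isthmus genes, the authors' deposited table called 1 up and 4 down, and 2 rose and 4 fell relative to the GC bin, with medians of -0.41 and -0.28. LMX1A, a dorsal and roof plate factor, had 5.01 FPKM at day 5, against 0.723 FPKM at day 3 (log2 change 2.79, SE 0.66). PAX2, an isthmus factor, and the Iroquois gene IRX1 fell by 2.54 (SE 0.84) and 2.11 (SE 0.46) on the log2 scale. Only 2 of 39 listed HOX genes were tested, and both rose in the authors' deposited table. HOXA2, which marks the hindbrain and the crest that leaves it, had 10.4 FPKM at day 5, against 2.77 FPKM at day 3. The median over all 19 HOX genes above 0 was -0.09, or 0.09 relative to the GC bin.

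Pluripotency genes were lower at day 5. Of 17 pluripotency and NODAL genes tested, the authors' deposited table called 12 down and 1 up, and 11 fell and 1 rose relative to the GC bin, with medians of -0.69 and -0.76. PRDM14, a repressor of differentiation in human embryonic stem cells, had 0.672 FPKM at day 5, against 14.3 FPKM at day 3 (log2 change -4.41, SE 0.65). POU5F1, the core factor OCT4, had 3.61 FPKM at day 5 and 45.7 FPKM at day 3 (-3.66, SE 0.58). The table places it on an alternative chromosome 6 haplotype, and POU5F1 has near-identical pseudogenes, so its level is uncertain. L1TD1, an RNA-binding protein of stem cells, had 2.73 FPKM at day 5 and 26.3 FPKM at day 3 (-3.27, SE 0.49), and ZSCAN10 fell by 3.86 (SE 0.97) on the log2 scale. ZFP42 had 14.5 FPKM at day 5, against 40.7 FPKM at day 3. NANOG was near 1 FPKM on both days (0.798 FPKM at day 5, 1.03 FPKM at day 3). Of 29 listed genes of primitive streak, mesoderm or endoderm, 1 reached 1 FPKM and it was not called. Under 1 FPKM on both days, 2 others had a deposited Cuffdiff q-value below 0.05. KDR was at 0.404 FPKM at day 5, against 0.971 FPKM at day 3, and PDGFRA at 0.670 FPKM, against 0.290 FPKM.

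Among BMP pathway genes, rises outnumbered falls and 13 genes were not called. Of 30 ligands, antagonists, receptors and targets tested, the authors' deposited table called 14 up and 3 down, and 11 rose and 2 fell relative to the GC bin, with medians of 0.68 and 0.52. BMP4 had 2.40 FPKM at day 5, against 0.153 FPKM at day 3 (log2 change 3.98, SE 1.18), and the antagonist NOG had 2.33 FPKM, against 0.319 FPKM (2.87, SE 0.84). ID4, an inhibitory helix-loop-helix target of BMP signalling, had 21.8 FPKM at day 5 and 2.89 FPKM at day 3 (2.92, SE 0.52). The called falls were those of the antagonists FST and CHRD and the ligand GDF10. FST had 54.4 FPKM at day 5, against 186.7 FPKM at day 3 (-1.78, SE 0.43), and CHRD and GDF10 changed by -1.09 and -1.48 and were not called relative to their GC bins. The BMP targets ID1 and MSX2 rose by 1.79 and 2.75, as ID4 did. ID2, ID3 and SMAD6, with changes of -0.27, -0.006 and 0.05, were not called.

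Genes of the WNT pathway did not share a direction, although CHIR99021 was present on both days. Of 36 WNT ligands, receptors and targets, the authors' deposited table called 3 up and 7 down, and 5 rose and 7 fell relative to the GC bin, with medians of -0.22 and -0.07. The ligand WNT8A had 0.546 FPKM at day 5, against 12.1 FPKM at day 3 (log2 change -4.47, SE 0.77), and WNT4 had 0.278 FPKM, against 6.06 FPKM (-4.44, SE 0.69). WNT3A, a roof plate ligand, rose to 3.31 FPKM at day 5, against 0.331 FPKM at day 3 (3.32, SE 0.77). The receptor FZD8 fell by 2.05 (SE 0.59) on the log2 scale, and by 1.20 relative to its GC bin. Of 10 secreted WNT modulators, the authors' deposited table called 4 up and 3 down, and 4 rose and 2 fell relative to the GC bin, with medians of -0.13 and 0.15. SFRP4, a secreted frizzled-related protein, had 86.0 FPKM at day 5, against 10.9 FPKM at day 3 (2.97, SE 0.50), and the WNT inhibitor WIF1 had 0.559 FPKM, against 6.10 FPKM (-3.45, SE 0.72). The R-spondin RSPO3 and the matrix protein CTHRC1 rose by 2.54 and 1.83.

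Of 26 FGF and ERK feedback genes, the authors' deposited table called 6 up and 3 down, and 4 rose and 3 fell relative to the GC bin, with medians of -0.04 and -0.22. DUSP6, an ERK phosphatase, had 37.7 FPKM at day 5, against 7.07 FPKM at day 3 (log2 change 2.41, SE 0.50), and the ligand FGF19 had 0.0662 FPKM, against 1.32 FPKM (-4.32, SE 1.41). FGF13, an intracellular member of the family, rose by 1.54 (SE 0.53). Of 21 Notch pathway genes, the authors' deposited table called 9 up and 2 down, and 11 rose relative to the GC bin, with medians of 0.45 and 0.75. The targets HEY1 and HES4 had 2.51 and 13.0 FPKM at day 5, against 0.255 and 2.63 FPKM at day 3 (3.30, SE 0.97, and 2.31, SE 0.58). DLL3, an inhibitory ligand, rose by 1.93 (SE 0.69).

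Retinoic acid and hedgehog genes included more falls than rises. Of 14 retinoic acid genes, the authors' deposited table called 2 up and 6 down, and 2 rose and 4 fell relative to the GC bin, with medians of -0.21 and -0.24. The retinol transporter STRA6 had 1.08 FPKM at day 5, against 6.50 FPKM at day 3 (log2 change -2.60, SE 0.67), and the reductase DHRS3 fell by 2.31 (SE 0.78) on the log2 scale. The binding protein CRABP1 was among the most abundant genes, with 2013 FPKM at day 5, against 415 FPKM at day 3 (2.28, SE 0.43). CYP26C1, a retinoic acid hydroxylase, fell to 26.1 FPKM at day 5, against 74.4 FPKM at day 3, but was not called relative to its GC bin. Of 10 hedgehog genes, the authors' deposited table called 2 up and 5 down, and 2 rose and 2 fell relative to the GC bin, with medians of -0.49 and -0.24. The target GLI1 had 1.90 FPKM at day 5, against 7.43 FPKM at day 3 (-1.97, SE 0.56), and the co-receptor CDON rose by 1.20 (SE 0.45).

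Of 22 YAP targets and contractile genes, the authors' deposited table called 8 up and 1 down, and 9 rose relative to the GC bin, with medians of 0.49 and 0.37. CYR61, a matricellular protein, had 83.5 FPKM at day 5, against 26.4 FPKM at day 3 (log2 change 1.66, SE 0.45). Smooth muscle actin ACTA2 had 57.0 FPKM at day 5 and 15.1 FPKM at day 3 (1.91, SE 0.59), and the actin-binding protein TAGLN had 344 FPKM, against 137 FPKM (1.33, SE 0.47). In Het and KO the median changes of this list were -0.52 and -0.71.

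Immediate early genes, the first to respond to growth factors or stress, had the highest median change among the lists with at least 7 tested genes, taken over all listed genes above 0. Over genes at 1 FPKM or more, the border list had the highest, 2.14, and immediate early genes had 1.40. Of 24 tested, 17 rose in the authors' deposited table and 20 relative to the GC bin, with medians of 1.34 and 1.51. FOSB, an AP-1 subunit, had 6.65 FPKM at day 5, against 0.509 FPKM at day 3 (log2 change 3.71, SE 0.68). The zinc finger gene EGR3 had 5.97 FPKM at day 5, against 0.568 FPKM at day 3 (3.39, SE 0.73). NR4A3 and KLF10 rose by 2.61 and 2.35, and EGR1 had 98.0 FPKM at day 5, against 36.7 FPKM at day 3. The list median was 1.15 in Het and 0.83 in KO.

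Of 25 p53 targets tested, 11 rose in the authors' deposited table and 15 relative to the GC bin, with medians of 0.58 and 0.96. ZMAT3 had 29.2 FPKM at day 5, against 6.0001 FPKM at day 3 (log2 change 2.28, SE 0.45). BTG2, an antiproliferative gene that is also in the immediate early list, had 79.7 FPKM at day 5, against 21.1 FPKM at day 3 (1.92, SE 0.46). The ribonucleotide reductase subunit RRM2B and the mitochondrial quality gene SPATA18 rose by 1.81 and 1.82. The same list had a median of 1.36 in Het and 0.10 in KO. Of 18 cell cycle inhibitors and D cyclins, 7 rose in the authors' deposited table and 9 relative to the GC bin, with medians of 0.71 and 0.51. CDKN1A, the p21 inhibitor, had 100.2 FPKM at day 5, against 34.1 FPKM at day 3 (1.56, SE 0.44), and GADD45A and CCNG2 rose by 1.55 and 1.65. CDK6, a kinase that the list also holds and neither an inhibitor nor a cyclin, rose by 1.91.

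The cell cycle lists parted by phase. Of 40 DNA replication and G1/S genes, 20 fell in the authors' deposited table and 16 relative to the GC bin, with medians of -0.63 and -0.60, and 39 of 40 were below 0. The replicative helicase subunit MCM5 had 25.3 FPKM at day 5, against 70.5 FPKM at day 3 (log2 change -1.48, SE 0.45), and cyclin CCNE1 had 6.87 FPKM, against 17.9 FPKM (-1.38, SE 0.54). POLE fell by 1.24 on the log2 scale, as did E2F1, which was not called relative to its GC bin. Of 35 mitotic genes, 23 rose in the authors' deposited table and 10 relative to the GC bin, with medians of 0.69 and 0.48, and 34 of 35 were above 0. The mitotic list had a median GC content of 42.6%, against 48.6% over all genes described. CDK1 had 153 FPKM at day 5, against 55.6 FPKM at day 3 (1.46, SE 0.41), and TOP2A had 164 FPKM, against 75.2 FPKM (1.12, SE 0.41). NUF2 and PRC1, kinetochore and spindle midzone proteins, rose by 1.23 and 1.13. In Het and KO the replication medians were -0.48 and -0.45, and the mitotic medians were 0.14 and 0.13.

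Of 32 glycolysis and hypoxia genes, the authors' deposited table called 16 up and 1 down, and 19 rose relative to the GC bin, with a median of 0.80 either way. P4HA1, a collagen prolyl hydroxylase induced by low oxygen, had 134 FPKM at day 5, against 18.4 FPKM at day 3 (log2 change 2.87, SE 0.46). BNIP3, a mitophagy receptor, had 189 FPKM at day 5 and 62.7 FPKM at day 3 (1.60, SE 0.43). The lactate transporter SLC16A3 and the peptide ADM rose by 1.66 and 2.21. The list median was 0.53 in Het and 0.68 in KO.

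Of 78 cytosolic ribosomal protein genes, 19 rose in the authors' deposited table and 23 relative to the GC bin, with medians of 0.44 and 0.45, and 68 of 78 were above 0. RPL10 had 867 FPKM at day 5, against 442 FPKM at day 3 (log2 change 0.97, SE 0.43), and RPL36A rose by 0.89. Of 38 oxidative phosphorylation genes, 4 rose in the authors' deposited table (10.5%, against 11.6% of all tested genes). Relative to the GC bin 2 rose, where 10.2% of all tested genes did, and the medians were 0.20 and 0.13. UQCRC2, a complex III subunit, rose by 0.79 (SE 0.41), and UQCRB, COX7A2 and COX6C were called in the authors' deposited table but not relative to the GC bin. Of 19 housekeeping genes, 3 rose in the authors' deposited table and 4 relative to the GC bin, with medians of 0.12 and 0.22. B2M and PGK1 rose by 1.16 and 0.91.

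Of 26 cholesterol genes, the authors' deposited table called 5 up and 8 down, against 2 and 3 relative to the GC bin, with medians of -0.02 and 0.12. SREBF1, a lipogenic transcription factor, had 2.94 FPKM at day 5 and 10.8 FPKM at day 3 (log2 change -1.88, SE 0.71), and FASN, the fatty acid synthase, had 30.4 FPKM, against 83.7 FPKM (-1.46, SE 0.40). The sterol enzyme MSMO1 rose by 1.32. Of 25 ATF4 and amino-acid stress genes, the authors' deposited table called 2 up and 4 down, and 2 rose and 5 fell relative to the GC bin, with medians of -0.25 and -0.21. The transporter SLC7A5 had 15.2 FPKM at day 5, against 41.9 FPKM at day 3 (-1.47, SE 0.45), CHAC1 and the serine enzyme PHGDH changed by -1.70 and -1.17, and ATF3 rose by 1.39. Of 7 metallothionein genes and regulators, the authors' deposited table called 1 up and 2 down, and 1 rose and 1 fell relative to the GC bin, with medians of -1.42 and -0.79. MT1X and MT2A, which share sequence with other metallothioneins, changed by -1.54 (SE 0.94) and -1.45 (SE 0.84), and the zinc exporter SLC30A1 rose by 1.33.

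Of 20 interferon and antigen presentation genes, 5 rose in the authors' deposited table and 8 relative to the GC bin, with medians of 0.25 and 0.35. IFI27 and IFIT1 rose by 1.42 and 1.34, and HLA-B, whose reads may be shared with its paralogs, rose by 1.37. Of 16 TGF-beta genes, the authors' deposited table called 5 up and 2 down, and 6 rose and 1 fell relative to the GC bin, with a median of 0.27 either way. The co-receptor TGFBR3 and the ligand TGFB1 rose by 1.32 and 1.24, and INHBE, an inhibin subunit, fell by 1.46 on the log2 scale. Of 13 genes of the IGF axis, the authors' deposited table called 4 up and 3 down, and 6 rose and 2 fell relative to the GC bin, with medians of -0.04 and 0.03. IGFBP3 rose to 6.82 FPKM at day 5, against 1.69 FPKM at day 3 (2.01, SE 0.66), and STC1 rose by 1.20. Of 11 EGF receptor family genes and ligands, 4 rose in the authors' deposited table and 2 relative to the GC bin, with medians of 0.52 and 0.20. HBEGF and LRIG3 rose by 1.20 and 0.91, and EGFR and ERRFI1 (0.79 and 0.76) were not called relative to the GC bin.

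Of 41 chromatin regulators, the authors' deposited table called 3 up and 8 down, and 3 rose and 4 fell relative to the GC bin, with medians of -0.06 and -0.16. The de novo methyltransferase DNMT3B, high in pluripotent cells, had 23.7 FPKM at day 5, against 73.3 FPKM at day 3 (log2 change -1.63, SE 0.43). DNMT1 and the Polycomb protein CBX2 fell by 0.93 and 1.14 on the log2 scale, and HDAC9 rose by 0.97 but was not called relative to its GC bin. Of 17 forkhead genes, the authors' deposited table called 3 up and 2 down, and 2 rose and 1 fell relative to the GC bin, with medians of 0.13 and 0.44. FOXN2 and FOXO1 rose by 1.22 and 1.19, and FOXH1, a NODAL partner, fell (-1.78, SE 0.86) but was not called relative to its GC bin. Of 18 genes of the MYC, MYCN and LIN28 list, the authors' deposited table called 3 up and 1 down, and 2 rose and 2 fell relative to the GC bin, with medians of -0.09 and -0.02. LIN28A had 291 FPKM at day 5, against 465 FPKM at day 3 (-0.68, SE 0.44), the MYC antagonists MXD1 and MXI1 rose by 2.04 and 1.08, and IGF2BP3 rose by 0.66. Of 20 heat shock genes and chaperones, 2 rose in the authors' deposited table (10%, against 11.6% of all tested genes), HSPA1A and HSPA1B. They are near-identical copies between which reads may be split, so that their single values are uncertain. Relative to the GC bin 4 rose and 4 fell, with medians of -0.12 and -0.17.

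In the lists of placode (11 tested), endothelial and blood (5 tested) and epidermal genes (3 tested), 2, 1 and 1 genes fell in the authors' deposited table and the others were not called. They were SIX5 and KRT19, which were not called relative to their GC bins, the clotting factor VWF, and FLG. Relative to the GC bin, 1 placode gene rose. The 3 medians were 0.06, -0.41 and -0.06, against 0.12, -0.54 and 0.02 relative to the GC bin.

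**Figure D2:**
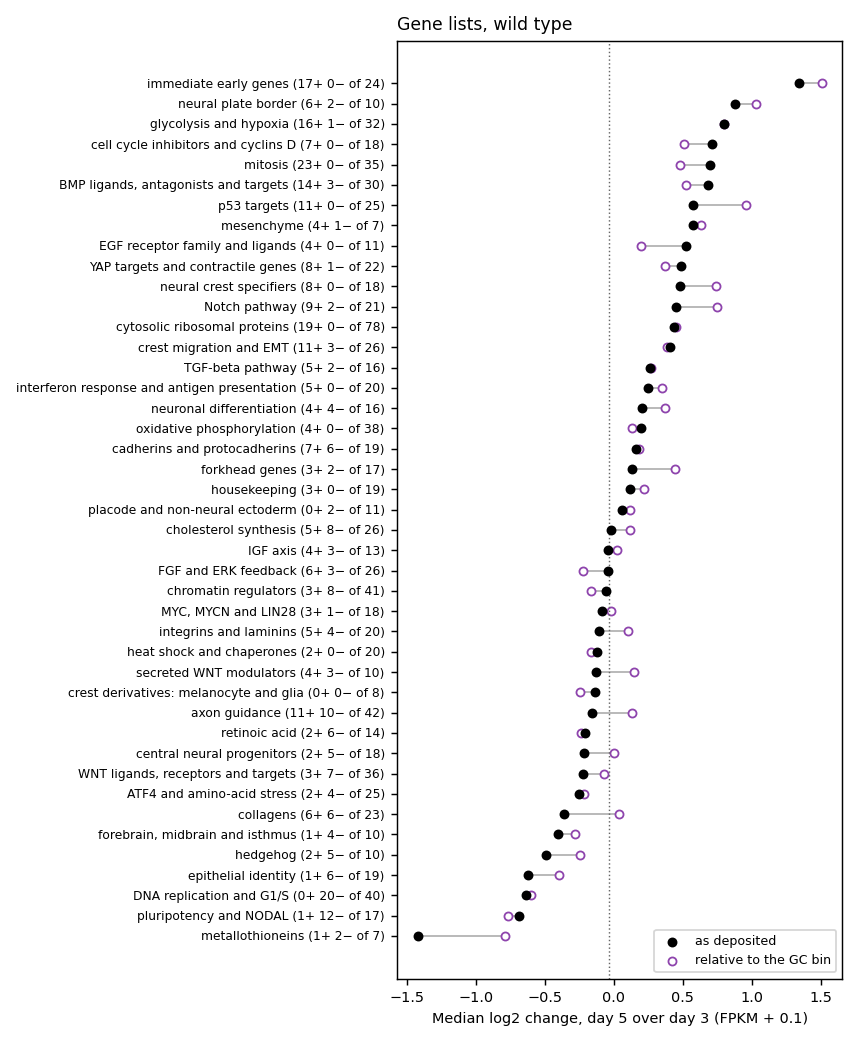
Median log2 change at day 5 over day 3 in wild type for each gene list with at least 7 tested genes, as deposited (filled) and relative to the GC bin (open). Behind each name stand the rises (+) and falls (−) in the authors' deposited table and the genes tested, and the dotted line is the median over all genes, -0.03; immediate early genes lie farthest right (1.34) and metallothioneins farthest left (-1.42).

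The change between the days went with transcript GC content over the whole range of genes. GC content came from the longest protein-coding or other annotated transcript of each gene and was found for 13221 of the 13855 genes (95.4%). Across the 13048 of them with levels above 0 on both days, Spearman's correlation of the log2 change with GC content was -0.50. This is a description across genes, which share libraries and are not independent replicates. In 5 classes of equal size by GC content, the class with the lowest (27.6% to 41.1%) had a median change of 0.42, the next classes 0.23, 0.07 and -0.22, and the class with the highest (58.4% to 74.4%) -0.58. In the highest class 80.7% of genes were below 0, and in the lowest 20.6%.

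The calls followed. In the lowest GC class, 625 of 2604 genes rose in the authors' deposited table and 35 fell (1.34%). In the highest class, 81 of 2607 rose in the authors' deposited table (3.11%) and 766 fell (29.4%). Relative to the GC bin, 248 rose and 187 fell in the lowest class, and 299 rose and 225 fell in the highest, shares of 9.52% and 7.18% against 11.5% and 8.63%. Removing each bin's median makes these shares alike by construction.

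**Figure D3:**
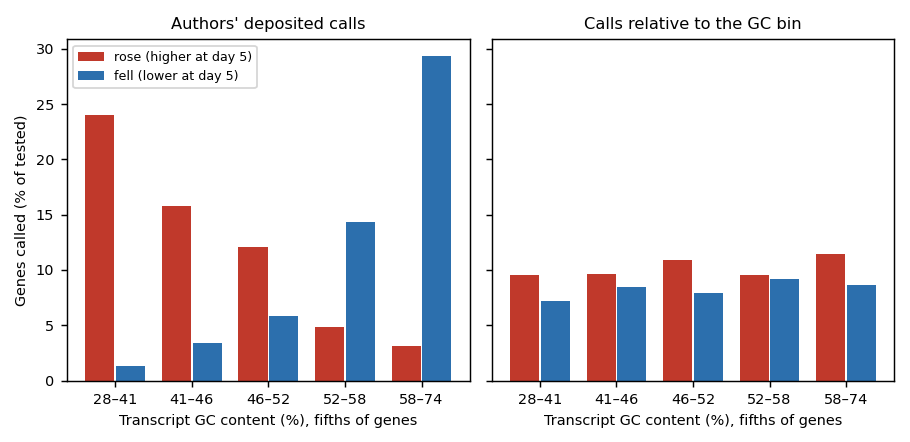
Percent of tested genes that rose or fell at day 5 over day 3 in wild type, by class of transcript GC content, in the authors' deposited table (left) and relative to the GC bin (right). On the left the rises shrink to 3.11% and the falls grow to 29.4% in the highest class, and on the right rises stay between 9.52% and 11.5%.

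Stretches of coding sequence from 4 genes show what the extremes of GC content look like. They are the genes with the largest called rise and the largest called fall in the lowest and in the highest GC class, and each stretch of 120 bases is the first in its coding sequence whose GC share is nearest that of the whole transcript. Sequences are from GENCODE 29 on GRCh38, printed 5′ to 3′ with G and C in capitals. ANXA1 (chromosome 9, 75766781 to 75785307 in hg19) rose by 5.50 and has a transcript GC content of 39.3%, and DAZL (chromosome 3, 16628301 to 16647006) changed by -5.90 at 38.3%. TPPP3 (chromosome 16, 67423712 to 67427421) rose by 4.43 at 60.6%, and HRH3 (chromosome 20, 60790017 to 60795323) changed by -4.63 at 67.1%. The coordinates are the loci that the authors' deposited table gives.
ANXA1, coding bases 350 to 469: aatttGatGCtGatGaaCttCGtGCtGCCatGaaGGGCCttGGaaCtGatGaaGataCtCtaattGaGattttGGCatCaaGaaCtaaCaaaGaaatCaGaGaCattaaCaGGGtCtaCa
DAZL, coding bases 134 to 253: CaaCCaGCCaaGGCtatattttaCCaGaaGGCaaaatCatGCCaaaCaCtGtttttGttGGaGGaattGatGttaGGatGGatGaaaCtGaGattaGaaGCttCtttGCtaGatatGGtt
TPPP3, coding bases 299 to 418: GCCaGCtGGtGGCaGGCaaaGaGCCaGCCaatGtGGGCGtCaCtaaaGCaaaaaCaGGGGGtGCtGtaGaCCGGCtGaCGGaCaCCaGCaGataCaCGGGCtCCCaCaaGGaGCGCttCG
HRH3, coding bases 104 to 223: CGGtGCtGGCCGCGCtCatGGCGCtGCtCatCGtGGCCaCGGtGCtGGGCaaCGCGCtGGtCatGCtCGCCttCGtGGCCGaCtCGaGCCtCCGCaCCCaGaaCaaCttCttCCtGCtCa
Large rises and falls occurred at both ends of the GC range, and relative to their GC bins the 4 changes were 5.13, -6.34, 4.93 and -3.78.

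The trend held in every stratum examined. In 4 equal groups by mean level, Spearman's correlation was -0.44, -0.56, -0.54 and -0.46, in order of rising level. In 4 equal groups by transcript length it was -0.42, -0.51, -0.55 and -0.53, in order of rising length, while the change itself correlated with length at 0.08. Protein-coding genes gave -0.52 (12285 genes) and other RNA genes -0.24 (763 genes). GC content of the promoter was found for 74.9% of the genes, under 80%, so the check against it is void.

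The same measure differed between comparisons according to the groups they hold, and comparisons that share a group are not independent. In the 5 comparisons of the table that hold wild type at day 3 as the denominator, the correlation lay between -0.57 and -0.33. In the 4 that set Het or KO over wild type at day 5 it lay between 0.14 and 0.41. In the 6 that hold neither wild-type group it lay between -0.10 and 0.08, at 0.08 for day 5 over day 3 in Het and -0.03 in KO. The difference in median change between the highest and lowest GC class was -0.999 in wild type, 0.16 for the Het line and -0.04 for the KO line. What lies behind this trend was not tested.

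**Figure D4:**
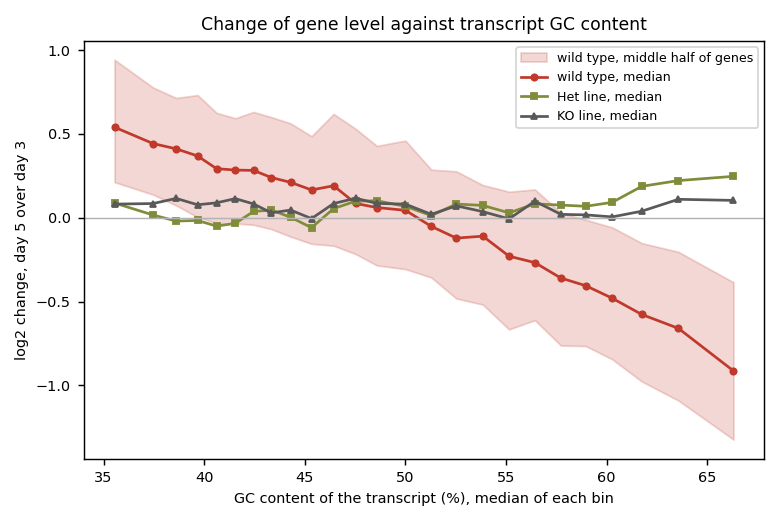
Median log2 change at day 5 over day 3 in 25 equal bins of genes by transcript GC content, for wild-type cells (with the interquartile range of genes shaded), Het and KO. The wild-type line runs from 0.54 in the lowest bin to -0.91 in the highest, whereas the Het and KO medians stay between -0.06 and 0.25.

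Medians of the autosomes followed GC content. The lowest were those of chromosomes 16 (-0.35, 594 genes), 19 (-0.32, 959 genes) and 22 (-0.29, 327 genes), whose genes have median GC contents of 55.5%, 58.8% and 56.8%. Relative to the GC bin they were -0.14, -0.02 and -0.02. Chromosomes 13 and 18, with GC medians of 42.9% and 43.7%, had the highest medians, 0.25 each, and stood at 0.00 relative to the GC bin.

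Of the 1558 rises in the authors' deposited table with a GC value, 964 were also called as rises relative to the GC bin, and of the 1415 falls 724 were. None of either was called the other way. A further 367 genes rose and 352 fell relative to the GC bin alone. The test used there differs from the deposited one, so gained and lost calls cannot be laid to GC content alone.

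The Het and KO lines went through the same days in groups that share no library with wild type. Of 1587 wild-type rises that were tested in Het, 396 (24.95%) also rose there in the authors' deposited table, where 4.88% of the tested genes rose. Of 1432 wild-type falls tested in Het, 256 (17.9%) fell, against 2.86% of tested genes. In KO, 391 of 1558 wild-type rises (25.1%) rose in the authors' deposited table, against 6.05% of tested genes, and 308 of 1436 falls (21.4%) fell, against 4.32%. Opposite calls numbered 5 and 6 in Het and 16 and 15 in KO. Called in all 3 genotypes of the authors' deposited table were 184 shared rises and 150 shared falls. Across genes, Spearman's correlation of the wild-type change with the Het change was 0.54, or 0.71 relative to the GC bin, and with the KO change 0.47, or 0.55.

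Tests of the difference between the time courses called few genes. The wild-type change differed from the Het change for 16 of 13518 genes (0.118%) and from the KO change for 41 of 13441 (0.305%), by a normal test of the difference with Benjamini-Hochberg adjustment across all genes tested. With standard errors scaled down to match the deposited p-values, the numbers were 168 and 670. ANKRD1 differed from both: its wild-type change of 5.24 stood against 0.73 in Het (difference 4.51, SE 1.005) and -0.13 in KO (5.37, SE 1.03). OLIG3 differed from both as well, with a wild-type change of -5.14, a Het change of 0.43 and a KO change of -0.72. PAPPA, a protease of IGF-binding proteins, rose in wild type (1.09) and changed by -2.38 in Het and -4.69 in KO. MYC was at 7.46 FPKM in wild type at day 5, against 11.975 FPKM at day 3, a change of -0.68 that was not called, and changed by 3.70 in KO (difference -4.38, SE 0.73).

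**Figure D5:**
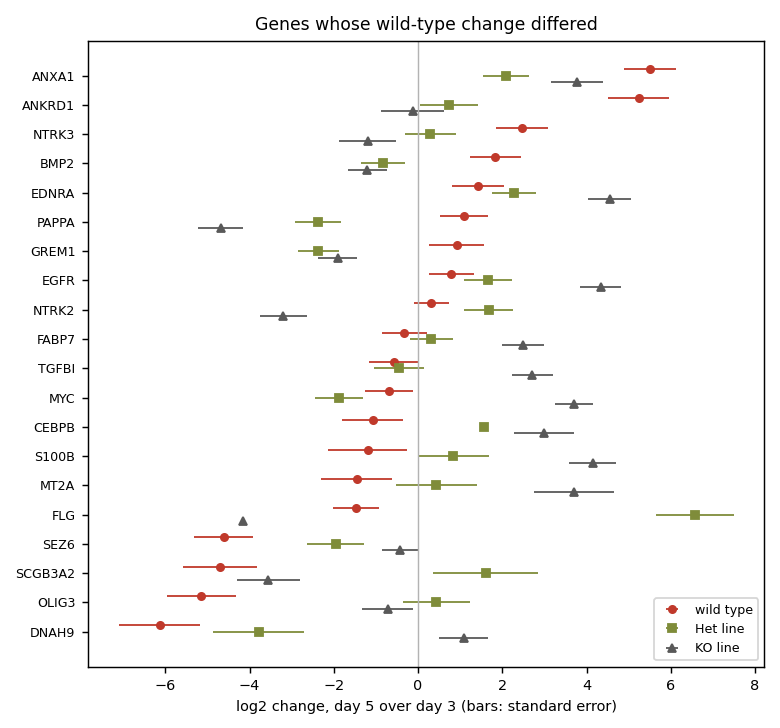
Log2 change at day 5 over day 3 in wild-type, Het and KO cells for the 20 named or listed genes whose wild-type change differed from that of Het or KO at an adjusted p below 0.05, with standard errors as bars; a point without a bar was not tested in that line. ANXA1 and ANKRD1 lie farthest right in wild type (5.50 and 5.24) and DNAH9 farthest left (-6.14).

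Precision depended on the level. The median SE of the log2 change was 0.68 for genes with a mean of 1 to 3 FPKM (2425 genes tested, of which 20.5% were called) and 0.42 for those at 100 FPKM or more (816 genes, 17.0% called). Over all tested genes it was 0.51. Of the called genes, 5 were listed at 0 on one day: MIR221, at 34.9 FPKM at day 5 and 0 at day 3, and MIR34A, NPS, SNAR-C3 and SNORD116-20, at 0 at day 5 and 14.5, 1.03, 20.6 and 94.0 FPKM at day 3. They were named after their values were seen. No fold is given for them. With transcripts of 110, 110 and 92 bases, MIR221, MIR34A and SNORD116-20 are shorter than a library fragment, so their values are uncertain.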

How the data were processed

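Poly-A RNA libraries from TRIzol-extracted total RNA were, per the submitters' processing notes, handled with TopHat2 2.1.1 and Cuffdiff 2.2.1 on hg19. Per the file headers, the authors' deposited table holds FPKM per gene and group, log2 fold changes, a test score, p-values and q-values for 15 comparisons of 6 groups. The q-values equal a Benjamini-Hochberg adjustment over all 222234 tests of the table to within 5.28e-07.

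Log2 changes were recomputed from FPKM, and the SE is the size of the change over the deposited test score. In wild type the score was a median 0.546 of the normal score of its p-value, so these SEs are wider than the p-values imply, and SEs scaled by this ratio served for the calls relative to GC bins. GC content came from GENCODE 29 transcripts (GRCh38) matched by symbol. Differences between time courses used the sum of both variances and a normal p. The calculations, run with Python 3.11.15, numpy 2.4.6, pandas 2.3.3 and scipy 1.17.1, were tested on simulated data.

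Members and lists were chosen with earlier results of these data known. Named genes were FOXB1, the 12 largest called rises and falls with a GC value, the 6 most abundant called genes each way, up to 4 called genes per list, and the largest called rise and fall in each of 5 GC classes. Other genes of the lists, and the markers, were named as examples after their values were seen. Y-linked genes were not named, and the counts over all genes did not leave them out. Alternatives were a stricter q-value, a 2-fold minimum, other scalings and a pseudocount of 1. Leaving out transcripts under 200 bases and using 10 GC bins were added after seeing the data and changed no call count by over 1.5 times. Some genes that this rule names are not reported here.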

Additional observations from a re-analysis of the deposited data

Results flagged for a closer look

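The results below were picked out because the wild-type change at day 5 over day 3 differed from that of Het or KO by a normal test of the difference with Benjamini-Hochberg adjustment over all genes tested. They are the named or listed genes among the 16 of 13518 and 41 of 13441 genes so called. Each difference is the wild-type log2 change minus that of the other line.

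Against Het, ANKRD1 differed by 4.51 (SE 1.005), ANXA1 by 3.41 (SE 0.82) and PAPPA by 3.46 (SE 0.78). GREM1, a BMP antagonist, differed by 3.28 (SE 0.81). The differences were negative for FLG (-8.05, SE 1.07), SCGB3A2 (-6.31, SE 1.52) and OLIG3 (-5.58, SE 1.14). FLG was at 1.80 FPKM at day 5 and 0.0190 FPKM at day 3 in Het, so its difference rests on a very low level. In wild type FLG was at 1.67 FPKM at day 5 and 4.63 FPKM at day 3. SCGB3A2 was at 1.87 FPKM at day 5 and 0.613 FPKM at day 3 in Het, and at 1.12 and 29.2 FPKM in wild type. ANXA1 changed in the same direction in both, by 5.50 in wild type and 2.097 in Het.

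Against KO, PAPPA differed by 5.77, ANKRD1 by 5.37, the neurotrophin receptors NTRK3 and NTRK2 by 3.66 and 3.51, and BMP2 by 3.04. The differences were negative for DNAH9 (-7.22), the glial calcium-binding protein S100B (-5.35), MT2A (-5.16), OLIG3 (-4.42), MYC (-4.38), SEZ6 (-4.19), CEBPB (-4.06), EGFR (-3.54), TGFBI (-3.29), the endothelin receptor EDNRA (-3.13) and the radial glial lipid-binding protein FABP7 (-2.81). EDNRA and EGFR were higher at day 5 in both lines, by 1.42 and 0.79 in wild type and by 4.55 and 4.33 in KO. NTRK2, S100B and FABP7 were not called in wild type, where they changed by 0.31, -1.20 and -0.32. In KO these genes changed by -3.20, 4.14 and 2.48. TGFBI changed by -0.58 in wild type and 2.71 in KO. What lies behind these differences was not tested.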

How the results depend on the processing

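With a q-value below 0.01, 1007 genes rose and 931 fell, and with a change of at least 2-fold 928 rose and 948 fell, genes listed at 0 on one day included. Over called genes alone, the highest minus the lowest GC class was -2.19, against -0.999 over all. Scaling the standard error to the deposited p-values gave 168 differences from Het and 670 from KO. Relative to its GC bin, MIF turned to 0.083, against -0.77. Of 189 named genes, 22 others lost their call relative to the GC bin, 26 at a q-value below 0.01 and 27 at 2-fold. The sign of the median turned for 10 of 48 lists relative to the GC bin and for 10 over genes at 1 FPKM or more. The check against promoter GC is void. No paired analysis was possible because the table gives 1 value per group, and for the same reason no replicate could be left out and the depth behind a value is unknown.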
